A study of Bos taurus with 15 samples.

Results

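CLDN3, CLDN4, CLDN6 and F11R encode membrane proteins of the tight junction, and they were followed here through bovine preimplantation development. They were taken as every probe set that the platform annotation assigns to these 4 symbols, which gave 6 probe sets of the 24016 tested and 4 genes of the 9155 named. CLDN6 and F11R each had 2 probe sets, and CLDN3 and CLDN4 had 1 each. Where a gene had 2 probe sets, the one with the higher mean over the 15 arrays is described first.

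The arrays covered 8 stages of Bos taurus: the oocyte (3 arrays), the 1-cell embryo (2 arrays), the 2-cell, 4-cell, 8-cell and 16-cell embryos (1 array each), the morula (3 arrays) and the blastocyst (3 arrays). All material descended from follicle-aspirated oocytes matured in vitro, and embryos were made by in vitro fertilization and grown in SOF medium with no further treatment. The sources used here do not state genotype, breed or how many oocytes or embryos were pooled per array. The labels call the replicated arrays biological replicates, without saying whether they came from separate collections.

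Tight junctions join neighbouring epithelial cells and close the space between them. Claudins are multi-pass membrane proteins whose strands form the seal and set which ions pass, and F11R (junctional adhesion molecule A) is a single-pass adhesion protein of the immunoglobulin family that recruits polarity proteins to early contacts. In the mammalian embryo, best studied in the mouse, these junctions are assembled from compaction onward in the outer cells, which become the trophectoderm, and the sealed layer is what lets the blastocoel fill with fluid.

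The deposited signals were linear intensities from 0.39 to 20788, with array medians between 39.7 and 61.7, and 2.56% of them were exactly 1.00. No detection call was used, so no background level can be set for dim probe sets. Signals are compared here between arrays for the same probe set or the same sum of marker genes. Where a level is set against the array medians, or probe sets are ranked by mean, this describes the listed intensities only and not amounts of transcript. The stage labels were set against GDF9 and KRT18. GDF9, an oocyte growth factor, lay at 24.8 to 41.5 in blastocysts, against 885 to 1331 in oocytes. KRT18, a keratin of simple epithelia, lay at 7120 to 10988 in blastocysts, against 3.62 to 35.5 in oocytes. GDF9 was added after its values were seen, and KRT18 is among the closest profiles to CLDN4 below. These values therefore describe the arrays and are no independent check of the labels. The arrays numbered 3 stood apart: 2347 to 2609 probe sets differed over 4-fold between morula array 3 and the other morula arrays, against 47 between morula arrays 1 and 2. The poly(A) labelling spikes were near background on 6 arrays, namely array 1 of the oocyte and 1-cell stages and arrays 1 and 2 of the morula and the blastocyst, and present on the other 9. The ratio of the middle to the 3′ GAPDH control was 0.100 to 0.625 in morulae and 0.339 to 0.643 in blastocysts, against 0.0374 to 0.237 in oocytes, and the cyclophilin ratio was 0.178 to 0.322 in morulae and 0.499 to 0.766 in blastocysts, against 0.0141 to 0.102 in oocytes. The actin ratio ran lower in part, with 0.0101 to 0.0302 in morulae and 0.00635 to 0.0447 in blastocysts, against 0.0275 to 0.0440 in oocytes, and the eIF-4E ratio overlapped, with 0.0636 to 0.887 in morulae and 0.0490 to 0.163 in blastocysts, against 0.0388 to 0.235 in oocytes. The part of RNA quality in the changes below was not tested.

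The 4 genes were higher in morulae and blastocysts than in oocytes. On the probe set with the higher mean, 4 of 4 genes passed the test as higher in morulae than in oocytes and 4 of 4 in blastocysts than in oocytes, where 11.8% and 11.9% of all probe sets were called higher. Counted by gene, 26.3% and 26.8% of all named genes passed in these comparisons, in either direction. The members were chosen with earlier results of these data known, so these counts are a description. CLDN4, CLDN6 and F11R, but not CLDN3, also passed as higher in morulae than in the mean of the 2-, 4- and 8-cell embryos, a comparison in which 13.0% of all probe sets were called higher. None of the 4 passed in the 1-cell embryo against the oocyte (0.271% of all probe sets called), in the mean of the 2-, 4- and 8-cell embryos against the oocyte (6.20% called), or in the blastocyst against the morula (0.167% called). At an unadjusted limma p below 0.05 these counts were 1 (F11R), 0 and 0 of 4. Higher ones made up the following shares of the probe sets called: 62.2% in morulae and 61.8% in blastocysts against oocytes and 56.7% in morulae against the cleavage mean, shares that were 52.5%, 52.7% and 44.2% with the arrays centred to equal medians and 51.4%, 51.8% and 46.9% after quantile normalization. Changes are given as log2 of the signal plus 16 with the standard error (SE) from limma, and a call means a Benjamini-Hochberg adjusted p below 0.05 over all 24016 probe sets. Because each array is scaled as a whole, fewer cells of a type and less RNA per cell cannot be told apart.

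**Figure D1:**
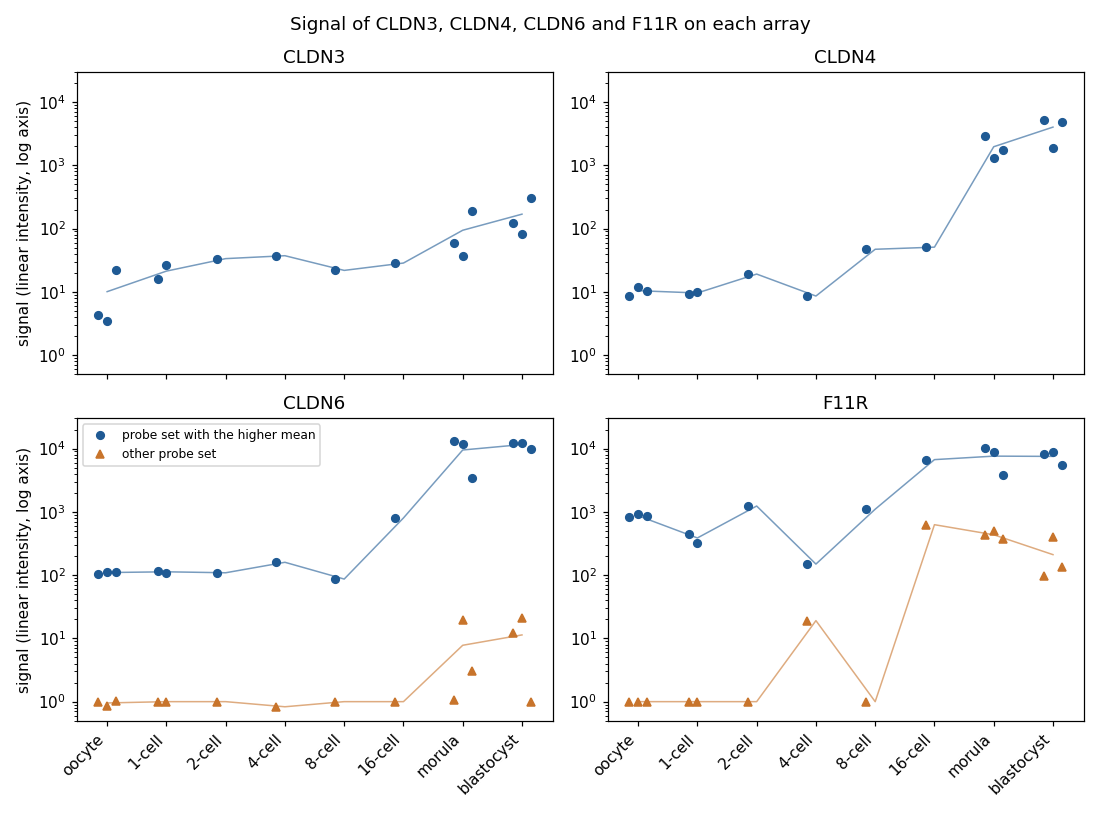
Signal of each probe set on each of the 15 arrays by stage; the vertical axis is linear intensity on a log scale, points are arrays, lines join stage means, circles mark the probe set with the higher mean and triangles the other one. CLDN4 and CLDN6 are far above the oocyte level from the morula on, F11R is already high on the 16-cell array, and CLDN3 changes less than the others.

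CLDN4 seals many adult epithelia and, with CLDN3, is a receptor of the Clostridium perfringens enterotoxin. Its probe set gave 8.67, 12.1 and 10.5 on the 3 oocyte arrays and 9.25 and 9.96 on the 1-cell arrays. The single arrays that followed gave 19.1 at the 2-cell, 8.59 at the 4-cell, 47.1 at the 8-cell and 50.9 at the 16-cell stage. Morulae gave 2879, 1303 and 1719, and blastocysts 5294, 1855 and 4906. Every morula and blastocyst array was therefore far above every earlier array, while the morula and blastocyst arrays overlapped.

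The mean CLDN4 signal was 1967 ± 817 in morulae and 10.4 ± 1.74 in oocytes (SD, n = 3 each), and the log2 change was 6.15 (SE 0.48, limma adjusted p = 3.78e-05), the 37th largest increase of all 24016 probe sets. Morulae were 5.63 above the mean of the 2-, 4- and 8-cell embryos on the log2 scale (SE 0.48, limma adjusted p = 5.06e-05). In blastocysts the mean was 4018 ± 1884 (SD, n = 3), a log2 change of 7.11 against oocytes (SE 0.48, limma adjusted p = 2.41e-05), the 9th largest increase of that comparison. The step between the last 2 stages, 0.96 for blastocyst over morula (SE 0.48, limma adjusted p = 0.707), did not pass. The 8-cell and 16-cell values, above every earlier CLDN4 value, rest on 1 array each and have no spread of their own.

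CLDN6 is the claudin of early embryonic epithelia and of pluripotent stem cells, and it is silent in most adult tissues. Its main probe set gave 105, 112 and 113 in oocytes, 118 and 108 in 1-cell embryos, 109 at the 2-cell, 159 at the 4-cell and 86.6 at the 8-cell stage. These signals lay in a narrow band. The 16-cell array gave 800.4, morulae gave 13220, 11876 and 3392, and blastocysts gave 12427, 12345 and 9948. The 16-cell value thus lay between the earlier and the later arrays without touching either, and morula array 3 was the lowest of the late arrays.

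The mean CLDN6 signal was 9496 ± 5328 in morulae and 110 ± 4.40 in oocytes (SD, n = 3 each), with a log2 change between them of 6.01 (SE 0.50, limma adjusted p = 5.72e-05). It was 11574 ± 1408 in blastocysts (SD, n = 3), a log2 change of 6.52 against oocytes (limma adjusted p = 3.74e-05). Morulae exceeded the mean of the 2-, 4- and 8-cell embryos by 5.95 (limma adjusted p = 4.92e-05). The change in the mean of those cleavage stages against oocytes was 0.06 (limma adjusted p = 0.980). Blastocysts over morulae gave 0.50 (limma adjusted p = 0.930), which turned to -0.12 without morula array 3.

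The other CLDN6 probe set stayed at the bottom of the scale. It lay between 0.83 and 1.01 on every array through the 16-cell stage. Morulae then gave 1.08, 19.2 and 3.07, and blastocysts 12.2, 20.8 and 1.00. Blastocysts thus overlapped the stages up to 16 cells, and the lowest morula array was barely above them (1.08 against at most 1.01). It passed in no comparison (morula against oocyte 0.41, SE 0.30, limma adjusted p = 0.401), and 7 of its 15 values were exactly 1.00. The CLDN6 result therefore rests on 1 of its 2 probe sets.

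F11R was well above the array medians already in oocytes. Its main probe set gave 820.4, 914 and 868 in oocytes and 448 and 325 in 1-cell embryos, with no overlap between them. The single arrays gave 1236 at the 2-cell, 149 at the 4-cell, 1101 at the 8-cell and 6688 at the 16-cell stage. Morulae gave 10206, 8790 and 3790, and blastocysts 8114, 8892 and 5564. The 16-cell value fell inside the range of both later stages, and the 4-cell array was the lowest of all 15.

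The mean F11R signal was 7595 ± 3370 in morulae and 868 ± 47.0 in oocytes (SD, n = 3 each), which differed by 2.99 on the log2 scale (SE 0.41, limma adjusted p = 7.76e-04). It was 7523 ± 1741 in blastocysts (SD, n = 3), a log2 change of 3.07 against oocytes (limma adjusted p = 7.01e-04). Morulae exceeded the mean of the 2-, 4- and 8-cell embryos by 3.51 (limma adjusted p = 2.84e-04). The lower signal in 1-cell embryos than in oocytes, -1.15 (SE 0.46, limma adjusted p = 0.547), did not pass. The mean of the 2-, 4- and 8-cell embryos against oocytes was -0.52 (limma adjusted p = 0.577) and 0.42 without the 4-cell array, so that its direction rests on that array. Blastocysts over morulae gave 0.08 (limma adjusted p above 0.99), and -0.36 without morula array 3.

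The other F11R probe set was listed at exactly 1.00 on the 7 arrays of the oocyte, 1-cell, 2-cell and 8-cell stages, and at 19.1 on the 4-cell array. It gave 627 at the 16-cell stage, 432, 494 and 377 in morulae, and 96.1, 403 and 133 in blastocysts. All 7 late arrays were above all 8 early ones, as on the main probe set, but the oocyte signal of the main probe set had no counterpart here. The fitted change of morula against oocyte was 4.72 (SE 0.44, limma adjusted p = 9.33e-05), and its size moves with the pseudocount, since the oocyte arrays are at one listed value: it was 7.76 with a pseudocount of 1 and 2.93 with 64. Blastocysts were lower than morulae by -1.23 (SE 0.44, limma adjusted p = 0.481), which did not pass.

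CLDN3, the close relative of CLDN4, stayed below the array medians through the 16-cell stage. Its probe set gave 4.34, 3.47 and 22.4 in oocytes, 16.0 and 26.6 in 1-cell embryos, 33.5 at the 2-cell, 37.3 at the 4-cell, 21.8 at the 8-cell and 28.5 at the 16-cell stage. Morulae gave 58.3, 36.4 and 188, and blastocysts 122, 83.0 and 302. Morula and blastocyst arrays did not overlap those of the oocyte, but the lowest morula array was below the 4-cell array. In the oocyte, the morula and the blastocyst, array 3 was the highest of its stage for CLDN3, whereas for CLDN6 and F11R array 3 was the lowest in morulae and in blastocysts.

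The mean CLDN3 signal was 94.1 ± 81.8 in morulae and 10.1 ± 10.7 in oocytes (SD, n = 3 each), and the log2 change was 1.90 (SE 0.57, limma adjusted p = 0.0436). It was 169 ± 117 in blastocysts (SD, n = 3), a log2 change of 2.72 against oocytes (SE 0.57, limma adjusted p = 0.00830). Neither morula against the mean of the 2-, 4- and 8-cell embryos (1.00, SE 0.57, limma adjusted p = 0.256) nor those stages against oocytes (0.90, limma adjusted p = 0.465) passed. The morula call was lost without oocyte array 1 (1.76, limma adjusted p = 0.128), oocyte array 2 (1.73, limma adjusted p = 0.132), morula array 1 (2.06, limma adjusted p = 0.0760) or morula array 3 (1.33, limma adjusted p = 0.109), and under 6 of the other settings given in the closing section. The blastocyst call against oocytes passed without each single array in turn.

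**Figure D2:**
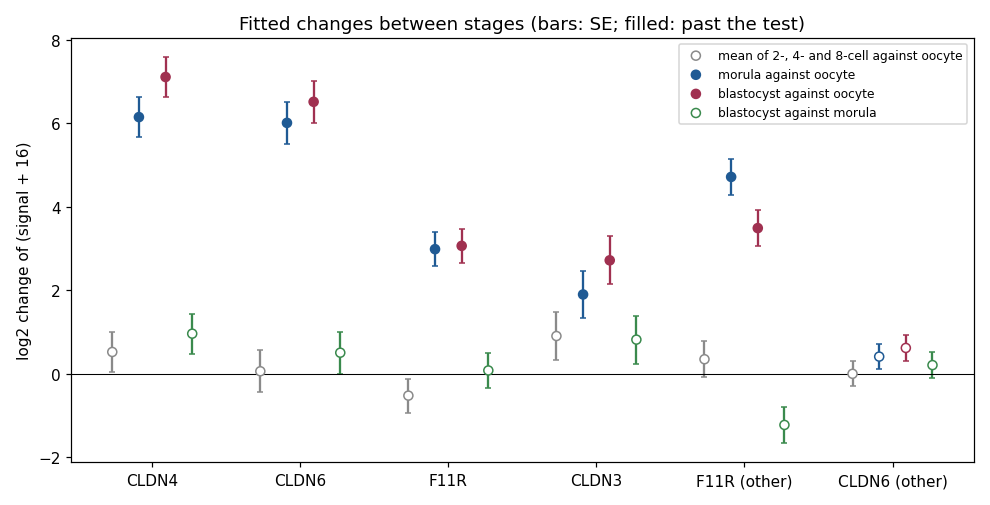
Fitted log2 change of signal plus 16 for the 6 probe sets in 4 comparisons; points are the limma estimates, bars are standard errors, filled points passed the test and open points did not, and "other" marks the second probe set of a gene. CLDN4 and CLDN6 sit near 6 to 7 against oocytes, F11R near 3 and CLDN3 near 2 to 3, and the blastocyst against morula points are open throughout.

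The 16-cell embryo separated F11R from the claudins. On a scale where the oocyte mean is 0 and the morula mean is 1 (log2 of signal plus 16), the 16-cell array stood at 0.98 for the main F11R probe set and at 1.11 for the other one. It stood at 0.45 for CLDN6, 0.45 for CLDN3 and 0.22 for CLDN4. Among the 2726 probe sets that passed as higher in morulae than in oocytes with a log2 change of at least 1, the median position was 0.82, with 65.2% of them below the main F11R probe set, 27.3% below CLDN6 and 18.7% below CLDN4. With a pseudocount of 1 the positions were 0.98 for F11R, 0.58 for CLDN3, 0.46 for CLDN6 and 0.30 for CLDN4, so that F11R stayed highest and CLDN4 lowest while CLDN3 and CLDN6, level with a pseudocount of 16, came apart. On earlier single arrays, with a pseudocount of 16, CLDN3 stood at 0.53 (2-cell), 0.58 (4-cell) and 0.32 (8-cell), so its 16-cell position was no step upward from all of these. The 8-cell array stood at 0.20 for CLDN4, -0.05 for CLDN6 and 0.11 for the main F11R probe set. The 16-cell stage has 1 array. That array carried a stromal marker signal, summed over 9 measured genes, of 6123, against 1785 to 5231 in morulae and 375 to 889 in oocytes. COL1A2 gave 2432 there, VIM 1959 and LUM 1397, while the other COL1A2 probe set gave 5.93. The part of this signal in these positions was not tested.

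**Figure D3:**
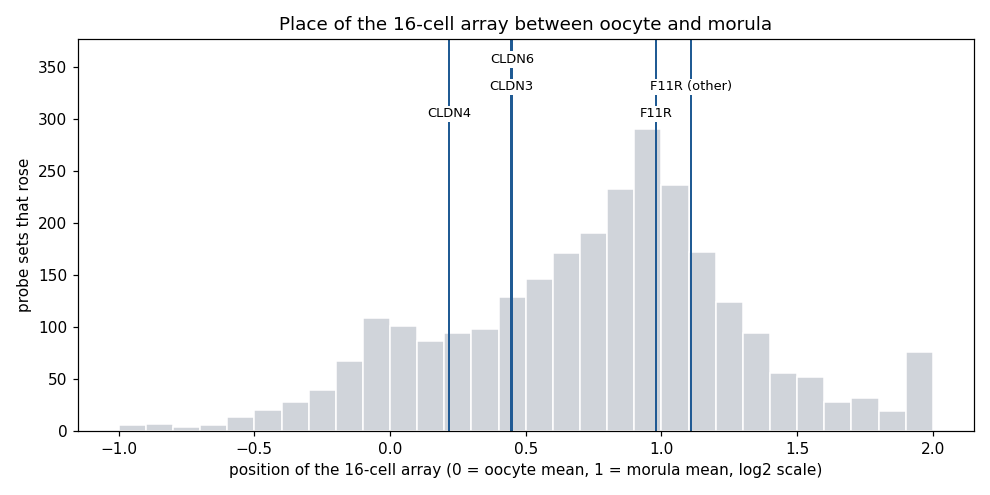
Histogram of the place of the 16-cell array between the oocyte mean (0) and the morula mean (1) on the log2 scale for the 2726 probe sets that rose; the vertical axis counts probe sets, the outermost bins gather all values beyond them, and lines mark the members that rose. F11R lies near 1 on both probe sets, CLDN3 and CLDN6 lie near 0.45 and CLDN4 lies at 0.22.

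The genes whose profiles were most like each member over the 15 arrays, out of 9154 others, were found by the Pearson correlation of log2 of signal plus 16. This is a description, since the points share stages and arrays. For CLDN4 they were XPNPEP2, an aminopeptidase (0.990), C16H1orf115, PLIN3, a lipid droplet protein, KRT18 and S100A14 (0.974). For CLDN6 they were ATP6V0D2, a subunit of the vacuolar proton pump (0.994), STEAP3, a metalloreductase, S100A14, PDHB and SMDT1 (0.986). XPNPEP2 had 1206 to 1525 in morulae, against 9.54 to 20.7 in oocytes, and ATP6V0D2 had 1603 to 5390 in morulae, against 27.4 to 58.9 in oocytes.

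For F11R the closest profiles were CBX3, a heterochromatin protein (0.974), RPS12, MAPK1IP1L, GRN and CAD (0.951). CBX3 shared the early level on the 16-cell array, with 4093 there and 4054 to 5264 in morulae. For CLDN3 they were H2AJ, a histone variant (0.923), PCYT2, NDRG2, VEGFB and HINT1 (0.890). Among the members, CLDN4 and CLDN6 were the closest pair (0.967, CLDN6 being the 10th closest gene to CLDN4), and CLDN3 and F11R the least alike (0.565).

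CLDN3 and CLDN4 are adjacent genes on bovine chromosome 25 in the RefSeq order, CLDN6 lies elsewhere on that chromosome and F11R on chromosome 3. ABHD11, the next gene beyond CLDN3, encodes a mitochondrial hydrolase. It had 871 to 2156 in morulae, against 168 to 1131 in oocytes, so the groups overlapped, and the change of 1.86 did not pass (limma adjusted p = 0.0724). ABHD11 did pass as higher in blastocysts than in oocytes (2.22, limma adjusted p = 0.0361). It also passed as higher in morulae than in the cleavage mean (2.03, limma adjusted p = 0.0455). TNFRSF12A, a receptor of the tumour necrosis factor family whose annotation overlaps CLDN6, had 2 probe sets that ran in opposite directions. One gave 436 to 516 in morulae, against 734 to 1782 in oocytes, and the other gave 283 to 324 in morulae, against 27.3 to 50.4 in oocytes.

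There were 11 other claudins with a named probe set, each described on the one with the highest mean. In morulae against oocytes 0 of 11 rose (2 at an unadjusted limma p below 0.05) and 2 of 11 fell, with a median log2 change of 0.06, against 0.14 over all genes, of which 26.3% passed. CLDN11, known from myelin and from the Sertoli cell barrier of the testis, ran opposite to CLDN4 and CLDN6. It gave 2240 to 5074 in oocytes and still 1834 on the 8-cell array, then 29.4 on the 16-cell array, 15.2 to 21.3 in morulae and 9.72 to 40.0 in blastocysts, with no overlap between the early and late arrays.

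The change in CLDN11 was -6.51 for morula against oocyte (SE 0.44, limma adjusted p = 2.50e-05) and -6.30 for blastocyst against oocyte (limma adjusted p = 2.73e-05). Its second probe set, at 34.2 to 74.1 in morulae and 11.2 to 41.5 in oocytes, did not show this fall. CLDN11 is also made by cumulus and granulosa cells, and the summed signal of the 22 measured cumulus and granulosa markers, CLDN11 included, was 19863 to 21890 in morulae, against 13778 to 19385 in oocytes. Without HAS2 it was 10606 to 12918 in morulae, against 12207 to 18074 in oocytes, which overlapped. The HAS2 probe sets disagreed: the one with the highest mean had 8622 to 9257 in morulae, against 1310 to 1776 in oocytes, and another had 8.48 to 11.2 in morulae, against 1017 to 3044 in oocytes (-6.20, limma adjusted p = 2.73e-05). On the probe set with the highest mean of each gene, 2 genes of that list rose in morulae against oocytes, HAS2 and CTSL. In the same comparison 5 fell, CLDN11, STAR, TNFAIP6, VCAN and FOXL2. Together these were 31.8% of the list, against 26.3% of all genes that passed. Of the 22, 2 were at 16 or under on every morula array, against 3 on every oocyte array. The part of cumulus cells in the CLDN11 values was not tested.

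CLDN2, a pore-forming claudin, fell by 0.89 on the log2 scale in morulae against oocytes (limma adjusted p = 0.0339), with 22.5 to 37.9 in morulae and 52.6 to 89.7 in oocytes. The call was lost without any one of 5 of the 6 arrays compared (limma adjusted p up to 0.131). The other CLDN2 probe set did not show this fall, with 7.70 to 19.6 in morulae and 8.91 to 13.9 in oocytes. CLDN10, the highest claudin of the list by mean that did not pass, had 315 to 1027 in morulae and 561 to 702 in oocytes. CLDN7, an epithelial claudin singled out after its values were seen, had 451 to 2316 in blastocysts, against 36.0 to 90.9 in oocytes. It passed there (3.48, SE 0.89, limma adjusted p = 0.0216), and the call was lost without oocyte array 1, oocyte array 3 or blastocyst array 3 (limma adjusted p up to 0.0627). In morulae CLDN7 had 108 to 1456 and did not pass (2.70, limma adjusted p = 0.0621).

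**Figure D4:**
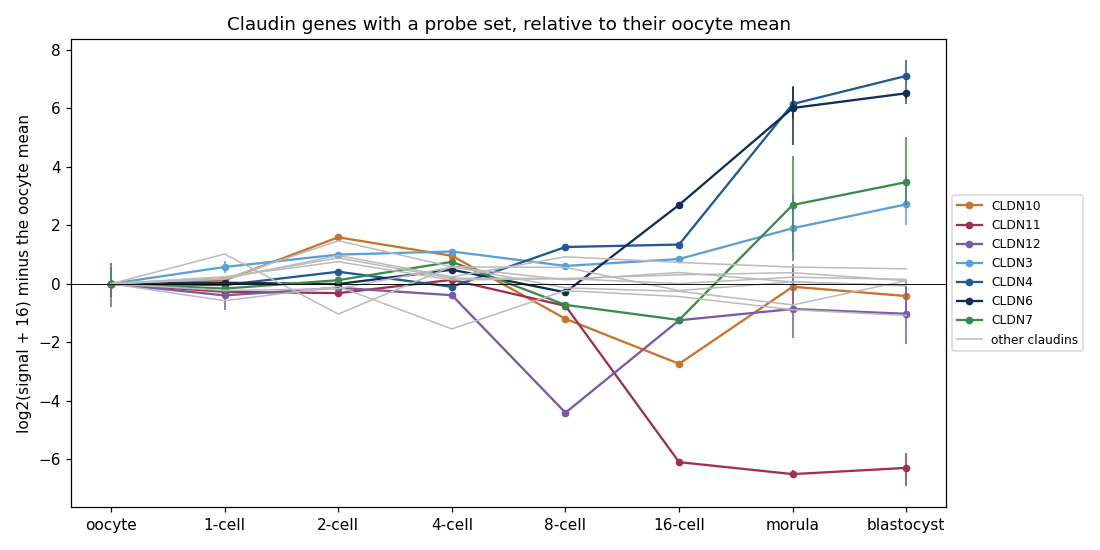
Mean log2 of signal plus 16 of each claudin gene minus its own oocyte mean, by stage, with bars from the lowest to the highest array; grey lines are the claudins not named in the legend. CLDN4 and CLDN6 end at 7.11 and 6.52 in blastocysts, CLDN7 at 3.48 and CLDN3 at 2.72, whereas CLDN11 ends at -6.30.

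Of the 6 measured transmembrane partners of the claudins, 1 rose and 0 fell in morulae against oocytes (also 1 and 0 at an unadjusted limma p below 0.05, median 0.47), and 2 rose in blastocysts against oocytes. The share that passed was 16.7% and 33.3%, against 26.3% and 26.8% of all genes. IGSF5, a relative of F11R, had 25.7 to 482 in morulae and 8.37 to 17.2 in oocytes (2.74, limma adjusted p = 0.0490), and its call was lost without any one of 5 of the 6 arrays (limma adjusted p up to 0.161). EPCAM, an epithelial adhesion protein that binds CLDN7, had 9370 to 12211 in blastocysts and 2231 to 4865 in oocytes (1.67, limma adjusted p = 0.0293), and its call was also lost without any one of 5 of 6 arrays (limma adjusted p up to 0.0901). JAM2, a relative of F11R, gave 1578 on the 16-cell array, against 43.6 to 190 on the other 14. CXADR, a junctional immunoglobulin protein, gave 1176 on that array, above its range of 21.7 to 408 in morulae and 44.3 to 69.4 in oocytes. JAM3 did not pass in any comparison, and OCLN had no named probe set.

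Of the 22 measured genes of the plaque and polarity list, 2 rose and 0 fell in morulae against oocytes (4 and 3 at an unadjusted limma p below 0.05, median -0.19). In blastocysts against oocytes 6 rose, namely TJP3, PRKCZ, ST14, PRSS8, SPINT2 and F2RL1. The share that passed was 9.09% in morulae and 27.3% in blastocysts, against 26.3% and 26.8% of all genes. The list was broad: besides scaffold and polarity genes it held ST14, PRSS8, SPINT1, SPINT2 and F2RL1. In morulae against the cleavage mean 5 of the list rose and 4 fell, the latter being PALS1, MAGI3, LIN7C and YBX3. These were 40.9% of the list, against 28.6% of all genes. PRKCZ, an atypical protein kinase C of the polarity complex that F11R recruits, had 1204 to 1598 in morulae, against 37.5 to 39.0 in oocytes (4.67, SE 0.56, limma adjusted p = 3.79e-04). TJP3, the scaffold ZO-3, had 103 to 478 in morulae, against 15.1 to 81.9 in oocytes (2.41, limma adjusted p = 0.0331), and this call was lost without any one of 4 of the 6 arrays (limma adjusted p up to 0.120). The TJP3 probe sets disagreed. Another fell, with 5.46 to 19.25 in morulae, against 45.9 to 70.6 in oocytes (-1.53, limma adjusted p = 0.00364). A further TJP3 probe set overlapped, with 3.17 to 44.5 in morulae and 15.2 to 27.5 in oocytes. CGN, the scaffold cingulin, ran through a trough: it had 924 to 1348 in oocytes, 41.0 to 137 on the 2-, 4- and 8-cell arrays and 800.1 to 1934 in morulae. It fell by 3.40 on the log2 scale in the mean of those cleavage stages against oocytes (limma adjusted p = 0.00210) and rose by 3.55 in morulae against them (limma adjusted p = 3.44e-04). TJP1, the scaffold ZO-1, had 36.8 to 115 in morulae and 52.4 to 147 in oocytes and did not pass. Its other probe set gave 148 at the 2-cell, 429 at the 4-cell and 8.69 at the 8-cell stage, on 1 array each. That probe set passed as higher in the cleavage mean than in oocytes (2.39, limma adjusted p = 6.26e-04). It passed as lower in morulae than in that mean (-2.38, limma adjusted p = 9.55e-05). Morulae against oocytes gave 0.011 there and did not pass (limma adjusted p = 0.9865). RAP1A, the highest gene of the list by mean that did not pass, had 2258 to 4344 in morulae and 5395 to 6564 in oocytes (-0.83, limma adjusted p = 0.0676). Another RAP1A probe set fell (-3.12, limma adjusted p = 0.0158), and others gave -0.45 and 2.31 and did not pass.

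PRSS8, a membrane-anchored serine protease of epithelia, was the 1 gene of this list, and of all lists of junction genes, that passed in blastocysts against morulae. It was named after its values were seen (3.43, SE 0.39, limma adjusted p = 0.0135, and 0.0517 without morula array 2).

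Of the 11 measured adherens junction genes, 2 rose and 2 fell in morulae against oocytes (3 and 2 at an unadjusted limma p below 0.05, median 0.21). These were 36.4% of the list, against 26.3% of all genes. JUP, plakoglobin, had 169 to 293 in morulae, against 16.9 to 34.4 in oocytes (2.58, limma adjusted p = 0.00185), and CDH3, P-cadherin, had 740 to 1112 in morulae, against 3737 to 5455 in oocytes (-2.29, limma adjusted p = 0.00148). NECTIN2, a nectin, rose by 1.78 (limma adjusted p = 0.0183), a call lost without any one of 3 of 6 arrays (limma adjusted p up to 0.0720). Other NECTIN2 probe sets gave 0.94 (limma adjusted p = 0.255) and -0.31 (limma adjusted p = 0.0541), and neither passed. CDH2, N-cadherin, fell by 1.58 (limma adjusted p = 0.0389), a call lost without any one of 5 of 6 arrays (limma adjusted p up to 0.112). CDH1, E-cadherin, had 303 to 2849 in morulae and 117 to 1427 in oocytes, which overlapped, and did not pass (0.88, limma adjusted p = 0.624). EZR, the highest gene of the list by mean that did not pass, had 4915 to 9927 in morulae and 4398 to 8053 in oocytes (0.21, limma adjusted p = 0.72).

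Of the 7 measured epithelial transcription factors, 4 rose and 0 fell in morulae against oocytes (4 and 1 at an unadjusted limma p below 0.05, median 2.26, against 0.14 over all genes). These were 57.1% of the list, against 26.3% of all genes. TEAD4, which the mouse trophectoderm needs, had 1170 to 2904 in morulae, against 20.8 to 44.3 in oocytes (5.16, SE 0.57, limma adjusted p = 2.35e-04). GRHL1, of the grainyhead family of epithelial regulators, had 984 to 1839 in morulae, against 6.60 to 124 in oocytes (4.05, limma adjusted p = 0.00553). Its other probe set did not show this rise, with 7.07 to 15.8 in morulae and 9.18 to 17.0 in oocytes. KLF4 had 6180 to 11741 in morulae, against 1142 to 1733 in oocytes (2.67, limma adjusted p = 0.00239). KLF5 rose by 2.26 (limma adjusted p = 0.0397), a call lost without any one of 5 of 6 arrays (limma adjusted p up to 0.126). OVOL1, the highest gene of the list by mean that did not pass, ran lower, with 108 to 3118 in morulae and 5364 to 7629 in oocytes (-2.78, limma adjusted p = 0.0801). TFAP2C and GRHL2 had no named probe set.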

How the data were processed

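Total RNA of bovine oocytes and embryos was amplified in 3 rounds and hybridized to Affymetrix bovine arrays, as the labels' protocols state. From these the authors deposited a single table of intensity values on a linear scale for 24128 probe sets on 15 arrays. The sources used here do not say how probes were summarised and scaled or what the value 1.00 stands for. The deposited intensity values were used without further normalization, since replicate array medians lay within 0.451 of each other (log2). After 112 control probe sets were left out, log2 of the value plus 16 was fitted with limma 3.58.1 in R 4.3.3 (a mean per stage over all 15 arrays, eBayes with trend, 7 residual degrees of freedom from the 4 replicated stages). The spread of the 4 single arrays was taken as that of the replicated stages. Benjamini-Hochberg adjustment ran over 24016 probe sets, with a threshold of 0.05. The number of arrays limits the precision.

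Of the probe sets tested, 13292 had 1 gene symbol, 86 had several and 10638 had none in the platform annotation, and 13263 matched the RefSeq gene table by identifier, which was used for names and gene order only. A gene was represented by its probe set with the highest mean. The text names the members, the 5 closest profiles to each, neighbours of the members, and a few genes of known role. Of each list of junction genes and of the transcription factors, it names up to 4 passing members and the highest non-passing member in morulae against oocytes. GDF9, CLDN7, PRSS8, VIM, LUM and the further genes named for the plaque and polarity list were added after their values were seen. The members and lists were chosen with earlier results of these data known. Sequences and promoter motifs were not analysed here. The summed signal of 9 measured blood and immune markers was 1604 to 2249 in morulae, against 332 to 1085 in oocytes. In that list only HBB passed as higher in morulae than in oocytes (11.1% of the list, against 26.3% of all genes). The sum of 7 sperm markers was 848 to 1225 in morulae, against 197 to 212 in oocytes. There only ODF2 passed (14.3% of the list), with a mean of 862 in morulae and 57.7 in oocytes. The part of these markers in the results was not tested.

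The replicate numbers come from the labels. Deviations of same-numbered arrays from their stage means correlated at 0.107 to 0.182 between oocyte and morula, 0.276 to 0.285 between oocyte and blastocyst, and 0.106 to 0.306 between morula and blastocyst. With the 1-cell stage 1 of the 2 correlations was below 0. Differently numbered arrays were not correlated, so these values cannot show whether the numbers pair the stages, and the labels do not say. The main fit held no replicate block, which was used only as an alternative. The fits were tested on simulated data. Alternatives covered normalization, centring, pseudocount, filter, variance model, arrays fitted, replicate block, arrays left out and spike-in class.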

Additional observations from a re-analysis of the deposited data

How the results depend on the processing

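For the probe set with the higher mean of each gene, 396 of the recomputed values kept their direction and their side of the threshold, 20 lost the call, 2 gained it and 18 changed sign, all 18 in comparisons that passed in neither fit. For CLDN3 in morulae against oocytes the call was lost with quantile normalization (1.78), median centring (1.72), a pseudocount of 64 (0.99), eBayes without trend (1.90) and only the compared stages (1.90); leaving out 1 array gave 1.33 to 2.31 (limma adjusted p = 0.0359 to 0.132). CLDN3 gained a call in the 2-, 4- and 8-cell mean against oocytes without the arrays numbered 3 (1.22) and in morulae against that mean with the spike-in class as a block (1.69). On the 9 arrays with the spikes present alone, with 1 residual degree of freedom, limma passed 0 probe sets of the table in each comparison (3795 in morulae against oocytes at an unadjusted p below 0.05), with these values: morulae against the cleavage mean gave 5.52 for CLDN4, 4.70 for CLDN6 and 2.63 for F11R, morulae against oocytes 2.90 for CLDN3, 5.99 for CLDN4, 4.73 for CLDN6 and 2.07 for F11R, and blastocysts against oocytes 3.54, 7.49, 6.28 and 2.62 in the same order of genes. The replicate block changed no call of these probe sets: blocked morulae against oocytes gave 1.90 for CLDN3 (limma adjusted p = 0.00284), 6.15 for CLDN4, 6.01 for CLDN6 and 2.99 for F11R; it could not be fitted for comparisons with single arrays, which have no replicate number. Sign changes for CLDN6 in 1-cell embryos against oocytes were -0.20 with quantile normalization, -0.063 with median centring, -0.20 with the replicate block, -0.063 with the spike-in block and -0.048 with spikes present alone, and leaving out 1 array gave -0.019 to 0.087; CLDN4 there gave 0.0092 with the replicate block, 0.034 on the arrays with spikes near background, and -0.093 to 0.0022 leaving out 1 array. Leaving out 1 array gave -0.15 to 0.24 for CLDN6 and -1.04 to 0.42 for F11R in the cleavage mean against oocytes, and -0.12 to 0.86 for CLDN6, -0.36 to 0.35 for F11R and -0.042 to 0.53 for the other CLDN6 probe set in blastocysts against morulae. In that comparison CLDN6 gave -0.017 and F11R -0.16 both without the arrays numbered 3 and on the arrays with spikes near background, and the other CLDN6 probe set gave -0.17 with spikes present alone. CDH1 in morulae against oocytes gave -0.17 to 1.75 leaving out 1 array and -0.46 with spikes present alone. With the mean of all probe sets of a gene, 1 claudin rose and 1 fell, 2 genes of the plaque and polarity list fell and 1 adherens gene rose in morulae against oocytes. Under that setting 1 gene of the plaque and polarity list fell in blastocysts against oocytes, and 1 transcription factor rose in blastocysts against morulae. The share over all genes was not counted there. In 2 settings added after seeing the data, morulae were set against oocytes. Without the arrays numbered 3, 1 claudin and 5 genes of the plaque and polarity list were higher and 2 of that list lower, where 7102 of 24016 probe sets were called. With the spike-in block 0 partners were higher, and 1 gene of the plaque and polarity list and 1 transcription factor were lower, where 5059 of 24016 were called. The probe sets called over the table ranged over the settings from 0 to 7102 in morulae against oocytes (main 4550), 0 to 6806 in blastocysts against oocytes (4624), 0 to 8809 in morulae against the cleavage mean (5514), 0 to 4661 in that mean against oocytes (1488), 0 to 419 in 1-cell embryos against oocytes (65) and 0 to 95 in blastocysts against morulae (40). Counts of 0 came in every comparison from the arrays with spikes present alone, in 1-cell embryos against oocytes, the cleavage mean against oocytes and blastocysts against morulae also from only the compared stages, and in the first and last of these also from the arrays with spikes near background. With spikes present alone, 3476 to 4213 probe sets of the 3 larger comparisons had an unadjusted limma p below 0.05. Median centring moved the median change of all probe sets in morulae against oocytes to -0.14, against 0.04 as deposited. The causes of these differences were not tested.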
